A study of Homo sapiens with 5 samples.

Results

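J-domain proteins, named DNAJ after the bacterial chaperone DnaJ, were followed in ribosome footprints of HAP1 cells lacking METTL18. They were chosen by symbol, DNAJ followed by A, B or C and a number, with 1 row per symbol, which gave 36 genes among 14042 symbols in 14084 rows. Class A held 2 of them, class B 8 and class C 26. DNAJC25-GNG10, a read-through transcript that joins DNAJC25 to its neighbour GNG10, met the same rule and was kept. Other human DNAJ genes were not analysed here.

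The study compared 3 METTL18 knockout libraries with 2 wild-type libraries of HAP1, an established human line that carries a near-haploid genome. METTL18 methylates a histidine of the ribosomal protein RPL3. The sources used here do not give the kind of mutation, nor say whether the knockout libraries come from 1 clone, several clones or separate cultures. P-values therefore cover just the scatter of these libraries, some of which may be technical. The labels name no treatment for either group.

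J-domain proteins are the partners of HSP70 chaperones. Their J domain carries an invariant histidine, proline and aspartate (HPD) loop that triggers ATP hydrolysis by HSP70, so that HSP70 closes on a client protein. Class A proteins keep the full layout of DnaJ with a zinc-binding region, class B proteins have a glycine- and phenylalanine-rich region without the zinc-binding part, and class C proteins share the J domain alone and use it in many places. Each compartment has its own HSP70, with HSPA8 in the cytosol, HSPA5 in the endoplasmic reticulum (ER) and HSPA9 in mitochondria.

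The HPD codons are shown because they are what the whole family shares and the rule did not use. Codons CAC or CAT, CCN, and GAC or GAT stood in frame in 36 of 36 coding sequences of GENCODE release 29 (hg38), and the first such triplet began before codon 150 in 30 of them. It was followed directly by a lysine codon in 28 genes. The 8 others were DNAJC3, DNAJC4, DNAJC7, DNAJC9, DNAJC22, DNAJC25, DNAJC25-GNG10 and DNAJC30. The triplet had 13 spellings, of which CACCCAGAC stood in 7 genes. The lines below give 33 coding bases, 5′ to 3′, for 9 genes on which the results turn, with the HPD codons in capitals. Coordinates are hg38, and those of DNAJC10, DNAJC15 and DNAJC19 span an intron.
DNAJA1 at chr9:33026572-33026604, plus strand: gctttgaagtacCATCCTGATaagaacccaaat
DNAJA2 at chr16:46971908-46971940, minus strand: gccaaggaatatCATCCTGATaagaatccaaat
DNAJB4 at chr1:78005192-78005224, plus strand: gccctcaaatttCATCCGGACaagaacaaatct
DNAJB9 at chr7:108571874-108571906, plus strand: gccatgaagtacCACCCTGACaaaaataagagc
DNAJC10 at chr2:182718261-182720009, plus strand: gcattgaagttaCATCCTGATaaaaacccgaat
DNAJC13 at chr3:132495128-132495160, plus strand: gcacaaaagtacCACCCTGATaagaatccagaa
DNAJC15 at chr13:43085814-43107185, plus strand: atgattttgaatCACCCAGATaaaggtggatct
DNAJC19 at chr3:180984703-180985950, minus strand: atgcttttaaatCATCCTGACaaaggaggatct
DNAJC30 at chr7:73683175-73683207, minus strand: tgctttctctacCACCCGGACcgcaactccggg
DNAJC15 and DNAJC19, the pair that serves mitochondrial import, were identical at 27 of these 33 bases. Such identity is not particular to the pair, since DNAJA1 and DNAJC10, of different classes and compartments, were identical at 28. Every stretch is also centred on the HPD codons, whose letters the search fixes in large part.

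The knockout libraries held 16339574, 17629199 and 16921863 counts and the wild-type libraries 5302160 and 4887380. The mean depth of the knockout was 3.33 times that of the wild type, so depth and genotype cannot be told apart. METTL18 itself stood at 2.10 ± 0.117 CPM in the knockout (SD, n = 3), against 5.71 ± 0.211 CPM in the wild type (SD, n = 2), with a log2 fold change of -1.44 (edgeR adjusted p = 2e-06). CPM are counts per 1000000 after TMM scaling, fold changes are knockout over wild type, and a gene passed the test at an edgeR quasi-likelihood adjusted p under 0.05 over all genes tested. Of 11335 genes tested, 74.4% passed, 37.8% as higher and 36.6% as lower in the knockout. With total counts in place of TMM, 26.3% passed as higher and 49.4% as lower, and the median of all genes shifted by -0.27 (log2). HAP1 descends from a leukaemia line; of 10 blood lineage markers 5 were in the table, and 2 of these had 0 counts in every library. Their summed level was 0.508 to 0.614 CPM in the knockout and 0.674 to 0.732 CPM in the wild type. Footprints reflect mRNA amount as well as ribosome load per mRNA, and the 2 were not separated here.

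The J-domain family moved in both directions. Of 36 genes, 34 passed the low-count filter, and 13 of these rose, 10 fell and 11 did not pass the test. That is 67.6% called, beside 74.4% of all genes tested. The median log2 fold change was 0.03, also with DNAJC15 set to its lower bound, against 0.02 over all genes. The median size of the change, without its sign, was 0.46 for the family and 0.59 over all genes. With a fold of at least 1.5, 7 members passed as higher and 6 as lower, beside 23.7% and 24.6% of all genes. Together these were 38.2% of the members tested and 48.3% of all genes. Knockout and wild-type values did not overlap for 26 of 34 members (76.5%), beside 83.5% of all genes. The knockout was the higher group in 13 of them (42.5% of all genes) and the lower group in 13 (41% of all genes). With total-count scaling 10 members passed as higher and 16 as lower, and the family's median was -0.24, next to -0.26 for all genes. The family took 0.274%, 0.280% and 0.267% of all counts in the knockout libraries and 0.282% and 0.283% in the wild-type libraries.

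**Figure D1:**
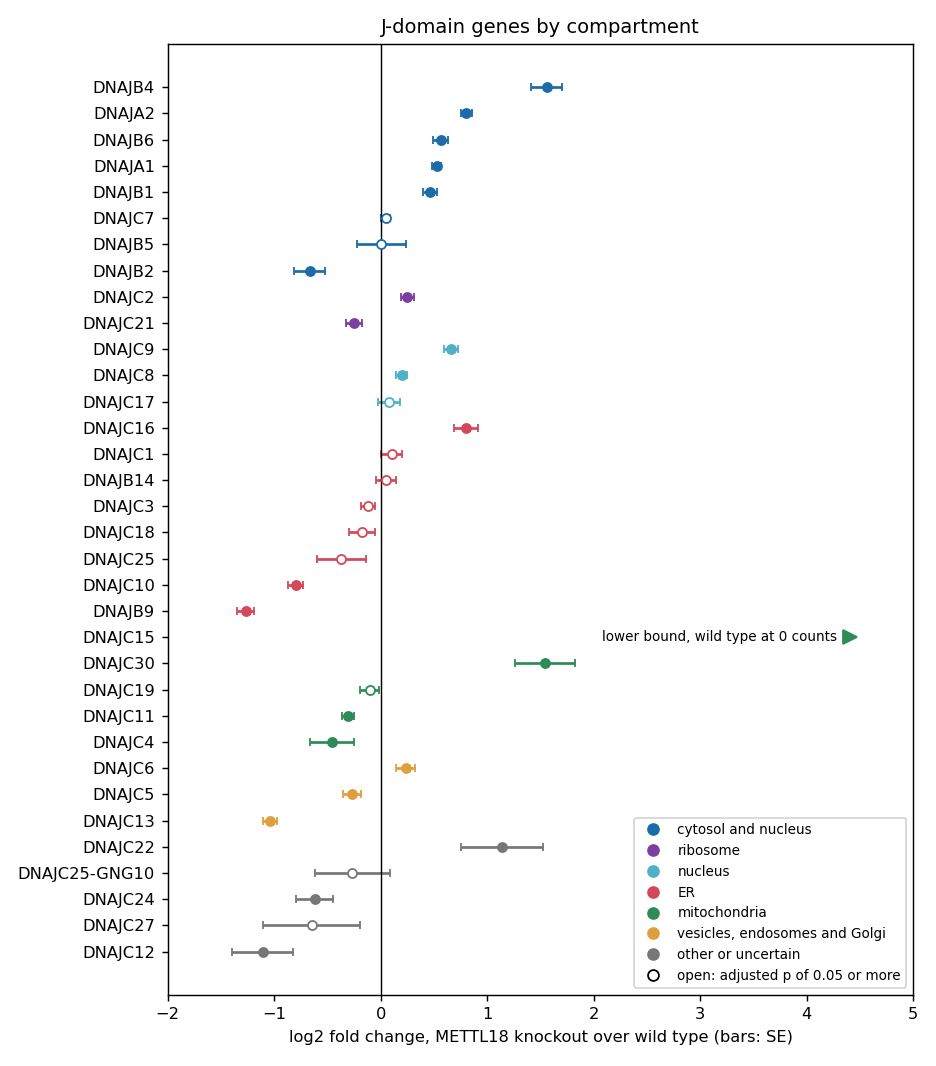
Log2 fold change (knockout over wild type, horizontal axis) of the 34 J-domain genes tested, grouped by compartment in colour, with SE bars; open circles did not pass the test and the arrowhead marks a lower bound. Of the 8 genes of cytosol and nucleus 5 rose, while in the ER 1 rose and 2 fell. Over all genes tested, 37.8% rose and 36.6% fell.

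The class A genes, the general folding helpers of the cytosol, both rose. DNAJA1 had 712, 714 and 669.7 CPM in the knockout libraries, against 492 and 479 CPM in the wild-type libraries, a log2 fold change of 0.52 (SE 0.0421, edgeR adjusted p = 1.3e-14). DNAJA2 had 454, 457 and 407 CPM in the knockout, against 257 and 246 CPM in the wild type. Its log2 fold change was 0.80 (SE 0.0501, edgeR adjusted p = 4.75e-18). All knockout libraries lay above both wild-type libraries for the 2 genes, and they also rose with total-count scaling. Over all genes tested, 37.8% passed as higher, and 42.5% had every knockout library above the wild type. Together they made up 38.6% ± 0.889 of the family's footprints in the knockout (SD, n = 3) and 29.3% ± 0.793 in the wild type (SD, n = 2). The larger classes moved both ways. In class B 3 genes rose and 2 fell of 7 tested, and in class C 8 rose and 8 fell of 25. Class C held 49.2% ± 0.583 of the footprints in the knockout and 58.3% ± 0.556 in the wild type.

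Among class B genes of the cytosol and nucleus, DNAJB4, DNAJB6 and DNAJB1 rose as class A did. DNAJB2 fell and DNAJB5 did not pass, beside 37.8% of all genes higher. DNAJB4, a close relative of DNAJB1, had 22.2, 20.8 and 21.4 CPM in the knockout and 6.74 and 7.87 CPM in the wild type (log2 fold change 1.56, SE 0.146, edgeR adjusted p = 1.26e-12). The knockout libraries were all well above the wild type, a 2.94-fold rise. DNAJB6, which keeps polyglutamine proteins from aggregating, averaged 168 ± 18.0 CPM in the knockout and 114 ± 2.11 CPM in the wild type (0.56). DNAJB1, the main heat-inducible partner of HSP70, averaged 93.8 ± 2.92 CPM in the knockout and 68.2 ± 2.39 CPM in the wild type (0.46). DNAJB2, which carries ubiquitin-binding motifs and is best known from neurons, went the other way. It had 7.92, 9.46 and 8.88 CPM in the knockout and 14.1 and 13.7 CPM in the wild type (-0.67, SE 0.146, edgeR adjusted p = 9.09e-05), with no overlap. DNAJB5, another relative of DNAJB1, stood at 4.50 ± 0.485 CPM in the knockout and 4.48 ± 0.387 CPM in the wild type (edgeR adjusted p = 0.980). DNAJB7 had 3, 6 and 4 counts in the knockout libraries and 0 in both wild-type libraries, where 3 counts over both libraries, taken as the floor, are 0.263 CPM. At 0.274 CPM in the knockout, a difference in DNAJB7 was not detectable at this depth, and it was not tested. DNAJC7, a class C protein with repeats that bind both HSP70 and HSP90, averaged 404 ± 10.3 CPM in the knockout and 391 ± 13.4 CPM in the wild type (edgeR adjusted p = 0.327). With total-count scaling its log2 fold change was -0.22 and passed as lower.

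Parts of several of these coding sequences recur elsewhere, and the sources used here do not say how reads matching several places were counted. Of the windows of 28 bases, the shortest footprint selected, 38.3% of DNAJB6, 78.7% of DNAJB1 and 80.0% of DNAJA1 occurred in no transcript of another gene in GENCODE release 29. Nearly all of the rest matched processed pseudogenes, and 1 of these, AP001000.1, held 58.5% of the DNAJB6 windows. All windows of DNAJB4 and DNAJB2 and 99.8% of those of DNAJA2 were unique. Over the family, 18 genes were wholly unique and 5 were under 50% unique.

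**Figure D2:**
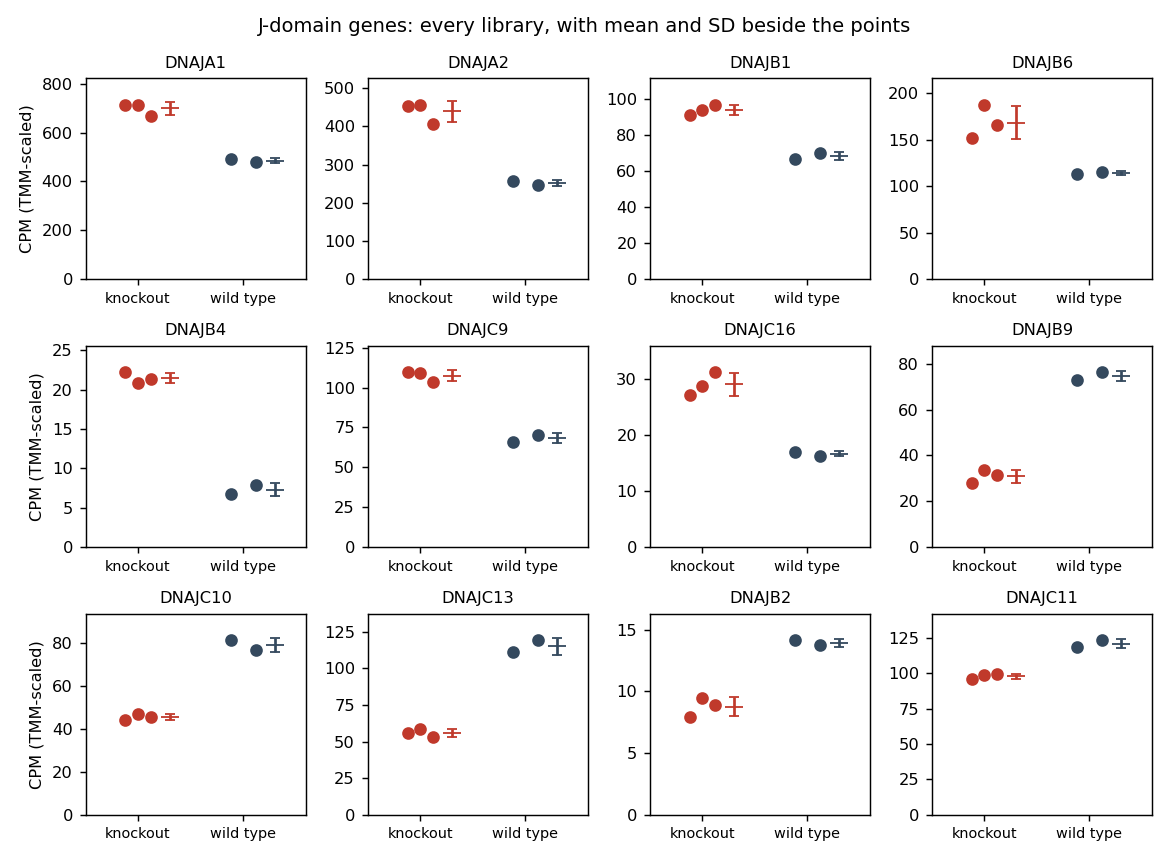
CPM of 12 J-domain genes in each library (points), with the mean and SD of each group beside them, knockout left of wild type and each vertical axis starting at 0. In DNAJA1, DNAJA2, DNAJB1, DNAJB6, DNAJB4, DNAJC9 and DNAJC16 all knockout points lie above the wild type, and in DNAJB9, DNAJC10, DNAJC13, DNAJB2 and DNAJC11 all lie below. The 12 genes were picked, and members whose groups overlap are not shown. Over all genes tested, the groups did not overlap for 83.5%, with the knockout higher for 42.5% and lower for 41%.

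Partners of the family were read from lists made for this purpose, which span compartments. Among 12 tested HSP70 genes and their relatives, 4 rose, 4 fell and 4 did not pass, with a median of -0.04. Of the 4 that fell, HYOU1 and HSPA13 belong to the ER, HSPA9 to mitochondria, and HSPA6 is a heat-inducible gene with 6 to 9 counts a library (-1.15, edgeR adjusted p = 0.0499). The constitutive HSPA8 rose by 1.04 on the log2 scale and HSPH1, an HSP110 relative that reloads HSP70 with ATP, by 0.70. Of 19 genes on a list of heat shock factors and the chaperones linked to HSF1, 17 rose, 1 fell and 1 did not pass, with a median of 0.70. HSP90AB1 (1.504), HSP90AA1 (1.10) and HSPE1 (1.54), the partner of HSP60, had the smallest p-values together with HSPA8. HSF1 itself was the gene that fell (-0.56). The gene that did not pass was HSPA1A, the classical heat-inducible HSP70, with 3.30, 3.13 and 2.22 CPM in the knockout libraries and 3.54 and 4.21 CPM in the wild-type libraries (-0.42, edgeR adjusted p = 0.159). HSPA1A was lower in every knockout library, but whether its windows are unique was not checked, as for all partner genes. Some of these genes stand on several of the lists. Of 12 nucleotide exchange factors, which release ADP from HSP70, 8 rose, 1 fell and 3 did not pass, with a median of 0.31 and BAG2 up by 1.78. The one that fell was HYOU1. These medians stand beside 0.02 over all genes, and the counts beside 37.8% of all genes higher and 36.6% lower. The lists were chosen with earlier results of these data known.

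HSPA8 rose more than the summed footprint density of the J-domain genes of its compartment, though DNAJB4 alone rose more than HSPA8. Per kilobase of coding sequence, the summed footprints of the 9 genes of cytosol and nucleus were 47.3, 47.5 and 43.7 for every 100 of HSPA8 in the knockout libraries, against 67.9 and 68.3 in the wild-type libraries. The groups do not overlap in this ratio. In each library the sum is dominated by DNAJA1, DNAJA2 and DNAJC7, since they hold the top densities of the 9.

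A DNAJB1 promoter is shown as an example of a window that holds part of the heat shock element, the site HSF1 binds. It was picked with both the motif and the rise of the gene known, and a link between them was not tested. The motif searched was a pair of inverted units, GAANNTTC, which reads alike on both strands. Promoter entries from RefSeq (GRCh38.p14) were found for 33 of the 36 genes. In the 250 bases before a start, the motif occurred in 4 of 33 genes, DNAJA1, DNAJB1, DNAJB6 and DNAJB7, and in 4 of their 42 start windows (9.52%). It occurred in 5.80% of 34943 windows of the same length over all genes. The other risers of this compartment, DNAJA2 and DNAJB4, did not hold these letters in the window. The ER stress element, which is CCAAT, 9 bases of any kind and CCACG, searched on both strands, was in 0 of the 33 genes and in 0.0744% of all windows. The stretch below, chr19:14518421-14518647 on the minus strand, lies before 1 of the 3 DNAJB1 starts in that table, with the motif in capitals. It holds no annotated exon base of DNAJB1, and exons of other genes were not checked. Another of these starts lies farther upstream, and its window did not hold these letters. A match describes letters and not a bound site.
DNAJB1: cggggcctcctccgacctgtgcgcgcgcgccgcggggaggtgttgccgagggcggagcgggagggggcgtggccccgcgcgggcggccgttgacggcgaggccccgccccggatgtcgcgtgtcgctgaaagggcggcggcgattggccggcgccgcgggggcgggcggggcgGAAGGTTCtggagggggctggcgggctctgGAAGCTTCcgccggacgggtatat

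In the ER, 2 genes of the lumen fell and 1 gene rose among 8 tested, and 5 did not pass, with a median of -0.15. That is 37.5% called, beside 74.4% of all genes. DNAJB9, which holds the stress sensor IRE1 inactive together with HSPA5 and helps degrade misfolded proteins, had 27.9, 33.5 and 31.5 CPM in the knockout libraries. Its wild-type libraries had 73.1 and 76.3 CPM, a log2 fold change of -1.27 (SE 0.0793, edgeR adjusted p = 5.2e-18). No other tested member fell further. DNAJC10, an ER reductase that removes disulfide bonds from proteins bound for degradation, had 44.1, 46.9 and 45.9 CPM in the knockout and 81.5 and 77.0 CPM in the wild type (-0.80, SE 0.0701, edgeR adjusted p = 2.07e-13). Both genes were low in all 3 knockout libraries without overlap. DNAJC16, an ER membrane protein linked to autophagosome size, rose instead, with 27.0, 28.8 and 31.1 CPM in the knockout against 17.0 and 16.3 CPM in the wild type (0.80, SE 0.114, edgeR adjusted p = 4.75e-08).

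The other ER members did not pass the test as fitted. DNAJC3, a lumenal helper of HSPA5, averaged 74.0 ± 1.02 CPM in the knockout and 80.4 ± 4.22 CPM in the wild type (-0.12, edgeR adjusted p = 0.0964). It passed as lower with upper-quartile factors (-0.16), with total counts (-0.39) and with a mean of at least 10 CPM required (-0.18). DNAJC1, whose lumenal J domain sits near translating ribosomes, averaged 31.6 ± 2.78 CPM in the knockout and 29.4 ± 0.111 CPM in the wild type (0.10). DNAJB14, an ER membrane protein that faces the cytosol, averaged 32.5 ± 1.996 CPM in the knockout and 31.4 ± 0.392 CPM in the wild type (0.05), and 61.4% of its windows were unique. With total-count scaling DNAJB14 passed as lower (-0.22). DNAJC18, a relative of DNAJB14, averaged 18.96 ± 2.20 CPM in the knockout and 21.5 ± 3.99 CPM in the wild type (-0.17). Without wild type replicate 1 it passed as lower (-0.36, edgeR adjusted p = 0.041), as it did with the knockout thinned to the wild-type depth (-0.29) and with total counts (-0.45); without wild type replicate 2 its value was 0.017. DNAJC25 averaged 4.07 ± 0.341 CPM in the knockout and 5.23 ± 1.18 CPM in the wild type (-0.37, edgeR adjusted p = 0.138), and it too passed as lower with total-count scaling (-0.64). The read-through DNAJC25-GNG10, counted under other or uncertain location, averaged 1.83 ± 0.319 CPM in the knockout and 2.21 ± 0.750 CPM in the wild type. Since just 4.86% of its windows were its own, it cannot be told apart from DNAJC25 and GNG10.

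HSPA5, the HSP70 of this compartment, averaged 2314 ± 53.3 CPM in the knockout and 2384 ± 38.5 CPM in the wild type (-0.04, edgeR adjusted p = 0.258). Of 21 ER folding partners 8 rose, 9 fell and 4 did not pass (all genes: 37.8% higher, 36.6% lower), with a median of 0.10. The 4 with the smallest p-values all fell. They were SEL1L, the scaffold of an ER degradation complex (-1.88), HYOU1, an HSP110 relative that exchanges nucleotide on HSPA5 (-1.14), SEC61A1, the protein-conducting channel (-1.08), and the stress sensor ATF6 (-1.38). The summed density of DNAJB9, DNAJC3 and DNAJC10 was 9.15, 9.96 and 10.0 for every 100 of HSPA5 in the knockout libraries, against 16.2 and 16.4 in the wild-type libraries, with no overlap. Among J proteins with other symbols, SEC63, which works with HSPA5 at that channel, fell by 0.33 on the log2 scale. HSCB (0.20), which acts in iron-sulfur cluster assembly, and the clathrin-uncoating kinase GAK (-0.09) did not pass.

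In mitochondria, 2 genes rose, 2 fell and 1 did not pass of 5 tested, which is 80% called, beside 74.4% of all genes. DNAJC15 differed most. This inner-membrane protein of the import machinery is also known as MCJ, and its gene is silenced by DNA methylation in some tumours. DNAJC15 (transcript ENST00000379221, hg38 chromosome 13, 43023203 to 43114224, plus strand, 6 exons) had 90, 84 and 89 counts in the knockout libraries, against 0 and 0 in the wild-type libraries. In CPM that is 5.94, 5.16 and 5.65 in the knockout. Against the wild-type floor of 0.263 CPM (3 counts summed over its libraries), DNAJC15 was at least 21.2-fold higher in the knockout (edgeR adjusted p = 2.28e-12). Of its windows 96.7% were unique. The 250 bases before its RefSeq start (43023336 to 43023585) held 19 CG pairs, more than 65.4% of promoter windows, whose median is 11. That window lies downstream of the start of the GENCODE transcript given above, within its span, and not before it. DNA methylation was not measured.

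DNAJC19, the paralogue of DNAJC15 in the import motor, averaged 32.0 ± 2.29 CPM in the knockout and 34.5 ± 0.409 CPM in the wild type (-0.10, edgeR adjusted p = 0.307), and with total-count scaling it passed as lower (-0.38). Just 22.7% of its windows were unique, and the pseudogene DNAJC19P9 held 77.3% of them. Per kilobase of coding sequence, DNAJC15 made up 13.5%, 10.8% and 11.4% of the pair in the knockout libraries and 0% in both wild-type libraries. The pair together stood at 97.8, 106 and 110 CPM per kilobase in the knockout and 98.2 and 99.9 in the wild type. HSPA9, the HSP70 that this pair activates, fell by 0.77 on the log2 scale. The pair came to 11.1, 11.7 and 12.5 for every 100 of HSPA9 in the knockout and 6.47 and 6.64 in the wild type, again by summed density and without overlap.

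DNAJC30, which acts on respiratory complexes of the inner membrane, had 5.48, 5.41 and 6.03 CPM in the knockout and 1.52 and 2.38 CPM in the wild type (1.54, SE 0.279, edgeR adjusted p = 4.88e-06). Its wild-type values rest on 9 and 13 counts. Its single exon lies opposite exons of WBSCR22, named BUD23 in GENCODE, which fell (-0.46), and the sources used here do not say whether counting used the strand. DNAJC11, which is bound to the complex that shapes cristae, averaged 98.0 ± 1.94 CPM in the knockout and 121 ± 3.38 CPM in the wild type (-0.30). DNAJC4, a mitochondrial protein of little-known role, averaged 5.11 ± 0.798 CPM in the knockout and 6.98 ± 1.33 CPM in the wild type (-0.46, edgeR adjusted p = 0.0424). Leaving out wild type replicate 1 (-0.24) ended that call, as did leaving out METTL18 knockout replicate 1 (-0.40) or METTL18 knockout replicate 2 (-0.40). It was also lost with DESeq2, without a low-count filter and with the knockout libraries thinned. Of 13 genes of the import motor and mitochondrial folding, 8 rose, 4 fell and 1 did not pass, with a median of 0.47. Over all genes, 37.8% rose and 36.6% fell. GRPEL1, the exchange factor of HSPA9, rose by 1.21 and HSPD1, the mitochondrial HSP60, by 0.95.

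**Figure D3:**
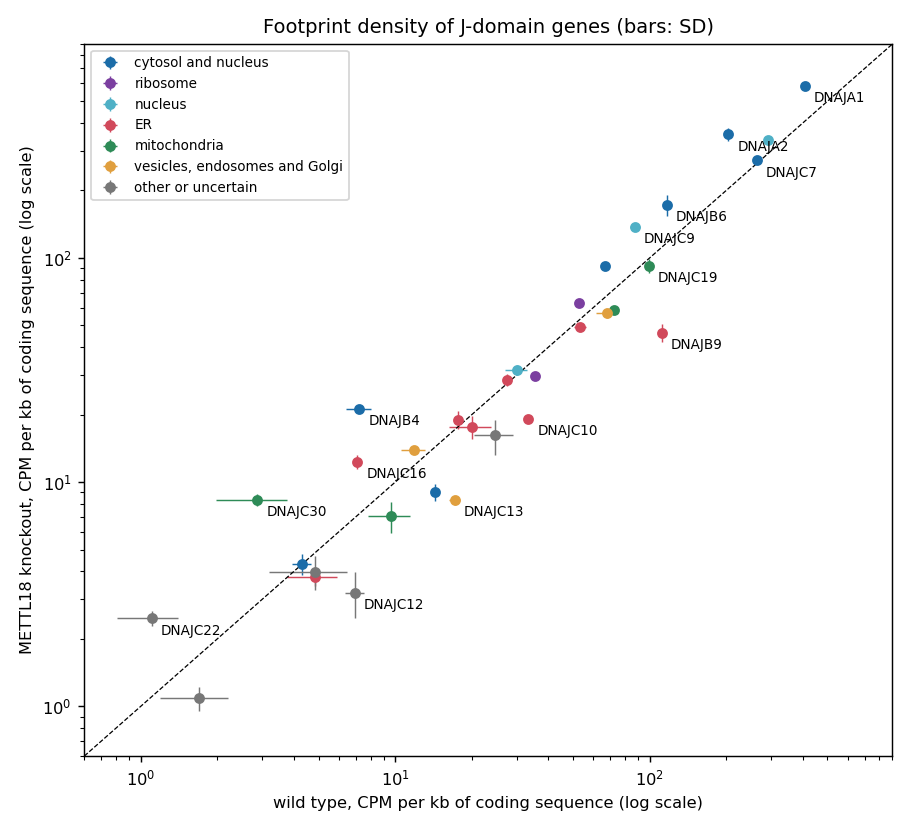
Footprint density, in CPM per kilobase of coding sequence on log axes, in the knockout (vertical) and the wild type (horizontal) for J-domain genes with counts in both groups; bars are SD and the dashed line marks equal density. Most genes lie near the line. Farthest above it are DNAJB4, DNAJC30, DNAJC22, DNAJA2 and DNAJC16, and farthest below are DNAJB9, DNAJC12, DNAJC13 and DNAJC10.

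The 2 J-domain proteins that work at the ribosome moved apart by small amounts. DNAJC2, which forms the ribosome-associated complex with HSPA14 at the exit tunnel, had 117, 122 and 113 CPM in the knockout and 99.7 and 97.5 CPM in the wild type (0.25, edgeR adjusted p = 0.000263). With total-count scaling it stood at -0.022 and did not pass. DNAJC21, which in yeast (as Jjj1) helps recycle factors of the large subunit in the cytosol, had 49.6, 47.4 and 45.3 CPM in the knockout and 56.2 and 56.9 CPM in the wild type (-0.25, edgeR adjusted p = 0.00286). Neither gene overlapped between groups, and neither changed by as much as 1.5-fold. HSPA14 itself averaged 87.9 ± 4.72 CPM in the knockout and 88.6 ± 1.72 CPM in the wild type (edgeR adjusted p = 0.883). Of 7 ribosome-associated partners 6 rose (37.8% of all genes did) and 1 did not pass, with a median of 0.94. Among them PA2G4, a late pre-60S factor, rose by 0.94, ZNF622 by 1.49 and NACA, which guards nascent chains, by 0.39.

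Of the 3 nuclear members, 2 rose, beside 37.8% of all genes. DNAJC9, a chaperone of histones H3 and H4, had 110, 109 and 104 CPM in the knockout and 66.2 and 70.4 CPM in the wild type (0.66, SE 0.0650, edgeR adjusted p = 5.92e-12), with no overlap. Of its windows 40.6% were unique, and 2 pseudogenes shared the rest. FAM149B1, whose exons overlap DNAJC9 on the other strand, fell (-1.87). Coding bases of 5 more members besides DNAJC9 and DNAJC30 lie opposite another gene's exons. These are DNAJC2 (opposite PMPCB, -0.52), DNAJC7 (CNP, -0.39, and NKIRAS2, -0.46), DNAJC17 (ZFYVE19, 0.41), DNAJB7 (XPNPEP3, -0.04) and DNAJC16 (AL121992.3, not analysed here). DNAJC8, which is found with the spliceosome, averaged 255 ± 5.29 CPM in the knockout and 222 ± 4.12 CPM in the wild type (0.20, edgeR adjusted p = 0.000351). With total-count scaling DNAJC8 stood at -0.076 and did not pass, and 49.9% of its windows were unique. DNAJC17, a splicing-linked protein with an RNA-binding motif, averaged 28.97 ± 1.52 CPM in the knockout and 27.4 ± 2.74 CPM in the wild type (edgeR adjusted p = 0.486).

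Of the 3 tested members of vesicles and endosomes, 2 fell and 1 rose, beside 36.6% and 37.8% of all genes. DNAJC13, which sorts cargo on endosomes together with HSPA8, had 55.7, 58.5 and 53.5 CPM in the knockout and 111 and 119 CPM in the wild type (-1.04, SE 0.0637, edgeR adjusted p = 2.47e-18). All knockout libraries were well below the wild type, and no window of this gene was shared. DNAJC5, the cysteine string protein of secretory vesicles, averaged 33.7 ± 1.68 CPM in the knockout and 40.5 ± 3.95 CPM in the wild type (-0.27, edgeR adjusted p = 0.00614). Without wild type replicate 1 this call was lost (-0.17). DNAJC6, auxilin, which strips clathrin from vesicles, averaged 38.2 ± 1.34 CPM in the knockout and 32.4 ± 3.43 CPM in the wild type (0.23, edgeR adjusted p = 0.0194). It no longer passed without wild type replicate 2 (0.13), with upper-quartile factors, with DESeq2 and with a mean of at least 10 CPM required, and with total-count scaling the value was -0.04. DNAJC5G, known from testis, had 0 counts in every knockout library and 2 and 0 in the wild type, too few for any comparison.

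The last 4 members, of other or uncertain location, were all low. DNAJC12, a helper of the aromatic amino acid hydroxylases, averaged 1.91 ± 0.437 CPM in the knockout and 4.13 ± 0.366 CPM in the wild type (-1.11, edgeR adjusted p = 0.00073). DNAJC24, which acts in the synthesis of diphthamide on elongation factor EEF2, averaged 7.22 ± 1.29 CPM in the knockout and 11.1 ± 1.95 CPM in the wild type (-0.62, edgeR adjusted p = 0.00161), a call lost without wild type replicate 1 (-0.42). DNAJC22, a membrane protein, averaged 2.52 ± 0.197 CPM in the knockout and 1.13 ± 0.306 CPM in the wild type (1.14, edgeR adjusted p = 0.00782). The wild-type libraries held 8 and 5 counts of it, and the call was lost without wild type replicate 2 (0.90) and with DESeq2. DNAJC27, which joins a J domain to a small GTPase, averaged 0.891 ± 0.112 CPM in the knockout and 1.39 ± 0.414 CPM in the wild type (-0.65, edgeR adjusted p = 0.191).

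The make-up of the family shifted with these changes. Genes of cytosol and nucleus held 62.3% ± 0.513 of its footprints in the knockout (SD, n = 3) and 53.0% ± 0.146 in the wild type (SD, n = 2). ER genes held 9.04% ± 0.107 in the knockout and 13.4% ± 0.158 in the wild type. Those of vesicles and endosomes held 4.33% ± 0.0341 in the knockout and 7.47% ± 0.0990 in the wild type. Mitochondrial genes held 4.97% ± 0.273 in the knockout and 6.53% ± 0.0956 in the wild type. The groups did not overlap in any of these 4 shares, nor in those of the ribosome, the nucleus and other or uncertain location. The shares of a library add up to the whole family, so they are not independent, and a rise of 1 lowers others. Separation was also common for single genes, at 83.5% of all genes tested, which is no matched background for summed shares. Shares are taken within a library and do not depend on the scaling between libraries.

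**Figure D4:**
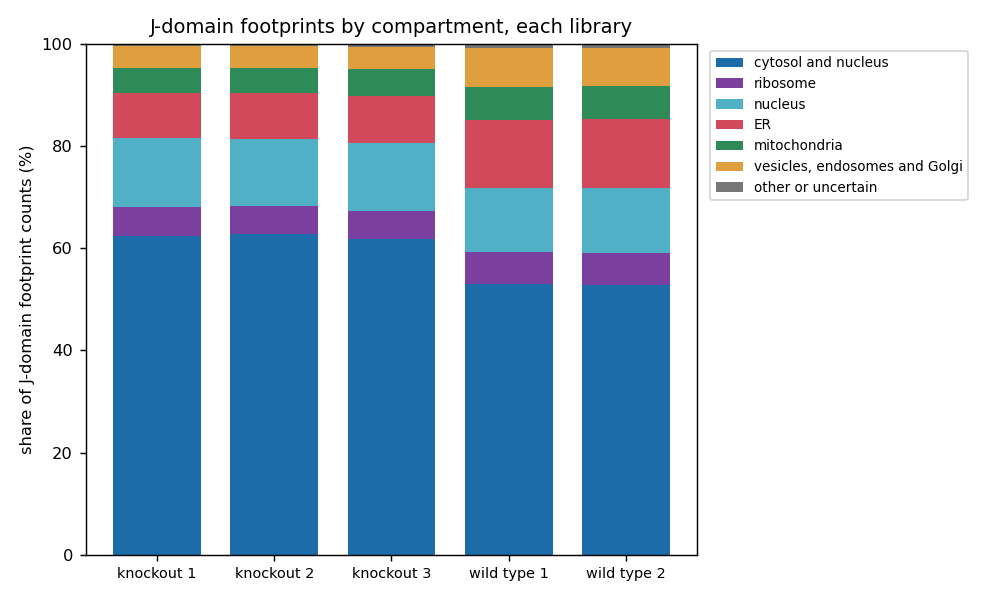
Share of all J-domain footprint counts (%) by compartment in each library, the 3 knockout libraries left of the 2 wild-type libraries. The share of cytosol and nucleus is 61.8 to 62.8% in the knockout and 52.9 to 53.1% in the wild type, and the ER share is smaller in every knockout library.

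By footprint density the order of the members was largely kept. DNAJA1 was the densest in both groups, with 587 ± 21.03 CPM per kilobase in the knockout and 408 ± 7.74 in the wild type. DNAJA2 ranked 2 in the knockout (355 ± 22.6) and 4 in the wild type (204 ± 6.31). DNAJC8 came next in the knockout with 336 ± 6.96 and was the second in the wild type with 293 ± 5.43. In the knockout the gap between DNAJA2 and DNAJC8 was smaller than the SD of DNAJA2. DNAJB9 ranked 13 in the knockout and 6 in the wild type, and DNAJB4 ranked 17 in the knockout and 25 in the wild type. Over the 34 tested members the rank correlation between the groups was 0.93, a description across genes that share libraries. Coding length and log2 fold change had a rank correlation of 0.07 over the members and -0.17 over 11284 genes of known length, and genes are not independent replicates.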

How the data were processed

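Footprints of 28 to 32 bases were prepared with RNase I and 4 randomized adapter bases, per the labels' protocols; the sources used here do not say whether those bases served to remove duplicates. The authors deposited raw counts per transcript in 1 table, which was used as it stands. Per the submitters' processing notes, Bowtie and hg38 were used; the counting tool and annotation release were not stated there.

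Groups came from the titles in the labels. All 5 libraries were fitted with edgeR 4.0.16 in R 4.3.3 (TMM, filterByExpr with a minimum count of 10 and minimum total of 15, robust quasi-likelihood test, group as the sole term), with p-values adjusted over all genes by the Benjamini-Hochberg method. Where a symbol had several rows, the row with the most counts was used. Compartments and partner lists came from general knowledge, and the members and lists were chosen with earlier results of these data known. Coding sequences came from GENCODE release 29, on the same build. Every member is named; values of all libraries are given for members past the threshold with a fold of at least 1.5 and a mean of 10 CPM or more, or with at most 3 counts in a group, and for some others. Up to 4 members of each partner list with the smallest p-values are named, besides HSPA1A, HSPA5, HSPA6, HSPA13, HSPA14, HSF1 and genes opposite a member, which were chosen by role or after their values were seen. Alternatives were other scaling factors, DESeq2 1.42.0, limma-voom (limma 3.58.1), other filters, a required fold, a replicate block, thinning to the wild-type depth, and each library left out. Floors cover counting error only.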

Additional observations from a re-analysis of the deposited data

How the results depend on the processing

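Over 16 alternatives, 532 values of 34 tested members were recomputed: 477 kept their direction and their side of the threshold, 28 lost the call, 8 gained one and 19 changed sign. All 5 libraries left out in turn gave 21 to 23 members called (11 to 13 higher, 8 to 10 lower) and 7391 to 8284 genes called over the whole table. Requiring a fold above 1.5 (glmTreat) left 9 members (5 higher, 4 lower) and 4140 genes (2011 higher, 2129 lower), and it left 8 ER folding partners (2 higher), 10 HSF1-linked chaperones (0 lower), 4 HSP70 genes (2 higher, 2 lower), 6 genes of the import motor (4 higher, 2 lower), 5 exchange factors (4 higher) and 0 J proteins with other symbols; fewer calls follow from the stricter hypothesis. Total-count scaling gave 16 members lower, 8 HSP70 genes lower, 5 exchange factors higher and 3 lower, and 2 J proteins with other symbols, 2 HSF1-linked chaperones and 1 ribosome-associated partner lower, which follows from the shift of all genes. Requiring a mean of 10 CPM gave 2 J proteins with other symbols, both lower. Member values also moved down alike under this filter, DNAJA1 from 0.52 to 0.46 and DNAJC3 from -0.12 to -0.18. The cause of the added call was not tested.

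Sign changes under total counts were DNAJB5 (-0.26), DNAJB14 (-0.22), DNAJC1 (-0.17), DNAJC2 (-0.022), DNAJC6 (-0.037), DNAJC7 (-0.22), DNAJC8 (-0.076) and DNAJC17 (-0.19). DNAJB5, near 0 throughout, also turned with RLE factors (-0.0023), upper-quartile factors (-0.035), DESeq2 (-0.0019) and limma-voom (-0.014). With a mean of 10 CPM required, DNAJB14 (-0.016) and DNAJC7 (-0.017) turned. With each library left out in turn, DNAJB5 ran between -0.083 and 0.089, DNAJC17 between -0.023 and 0.19, DNAJC18 between -0.36 and 0.017 and DNAJC25-GNG10 between -0.59 and 0.11. None of these members passed the test as fitted except DNAJC2, DNAJC6 and DNAJC8.

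The replicate numbers do not pair the libraries by any label, and deviations of same-numbered libraries correlated at 0.00392 and 0.0204. With the replicate block 23 members were called, 13 higher and 10 lower, and 8476 genes over the whole table. Depth limits DNAJB7, DNAJC5G, DNAJC22, DNAJC27 and DNAJC30, whose wild-type libraries held at most 13 counts each.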
